A study of Mus musculus with 52 samples.

Results

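A list of 9 acute-phase genes of the mouse liver was followed after partial hepatectomy, in which most of the liver is cut away and the remnant then grows back. The genes were Hp, Serpina3n, Serpina3m, Itih3, Itih4, Lbp, Fgl1, Apcs and Il1rn, listed by name. Each gene was read by the probe set annotated to it alone, and where a gene had more than 1, by the one with the highest mean over all arrays. Of the 9 genes, 8 had such a probe set, among 18193 genes measured in all. No probe set was annotated to Serpina3m, which was not analysed here.

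All livers came from C57Bl6/N mice labelled male, 8 to 12 weeks old and on standard diet, with no other allele or agent named. The same age label stands on every group, also on that of 3 months, and was not read as the age at sampling. If it is the age at surgery, mice of the late times were older at sampling than at surgery. Age and time after surgery then cannot be told apart at these times. The 47 operated samples were taken at 11 times after surgery. There were 3 arrays for 1 hour, 4 each for 6 and 12 hours, 11 for 24 hours, 4 each for 48 hours, 3 days, 4 days and 1 week, 2 for 2 weeks, 4 for 4 weeks and 3 for 3 months. They were set against 5 untreated control livers. A sham operation was not analysed here, hence anaesthesia, wounding and loss of liver tissue cannot be told apart, and as no label ties each array to its own mouse, the p-values cover only the spread among these samples.

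Acute-phase proteins are plasma proteins whose synthesis in hepatocytes changes after injury or infection. Interleukin 6 signals through the receptor subunit gp130 and the transcription factor STAT3, and interleukin 1 signals largely through NF-kB; both, together with C/EBP factors, act on the promoters of many acute-phase genes. In the remnant liver after hepatectomy, interleukin 6 released by Kupffer cells, the resident macrophages, is known to act on hepatocytes early.

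The genes fall into roles. Serpina3n is a secreted serine protease inhibitor related to human alpha-1-antichymotrypsin, and Itih3 and Itih4 are heavy-chain proteins of the inter-alpha-trypsin inhibitor family, which are linked to the extracellular matrix. Hp is haptoglobin, which binds free haemoglobin. Lbp carries bacterial lipopolysaccharide to Cd14, and Apcs is serum amyloid P component, a pentraxin that is the main acute-phase pentraxin of mice. Fgl1 is a fibrinogen-like protein secreted by hepatocytes and known as a mitogen for them. Il1rn is the interleukin 1 receptor antagonist, which blocks that cytokine at its receptor.

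Promoter sequence was at hand for 5 of the genes (Serpina3n, Itih3, Itih4, Apcs and Il1rn), with 7 transcription starts in all, from RefSeq in the GRCm38.p6 build. The 250 bases before each start were searched on both strands for 6 letter patterns: STAT as TTCNNNGAA, an interleukin 6 response pattern as CTGGGAA, NF-kB as GGG, any 2 bases and TTTCC, C/EBP as TTGCNNAA, HNF1 as GTTAAT, any base and ATT, and TATA as TATAAA. The 4 windows below are shown because they belong to genes described next and hold a match, which is in capitals. All 3 windows of Il1rn hold a match, and only the one with 2 matches is printed.
Apcs, chr1:172895055-172895304, minus strand: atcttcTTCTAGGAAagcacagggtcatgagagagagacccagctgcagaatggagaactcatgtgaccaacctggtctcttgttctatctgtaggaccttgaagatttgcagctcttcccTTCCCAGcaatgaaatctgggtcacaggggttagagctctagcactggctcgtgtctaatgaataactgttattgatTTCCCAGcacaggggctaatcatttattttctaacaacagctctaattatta
Itih4, chr14:30886226-30886475, plus strand: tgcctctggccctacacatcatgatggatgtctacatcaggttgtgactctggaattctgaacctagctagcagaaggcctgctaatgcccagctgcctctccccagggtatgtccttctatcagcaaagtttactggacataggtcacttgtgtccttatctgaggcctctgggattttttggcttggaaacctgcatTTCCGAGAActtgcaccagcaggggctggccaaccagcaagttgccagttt
Serpina3n, chr12:104406458-104406707, plus strand: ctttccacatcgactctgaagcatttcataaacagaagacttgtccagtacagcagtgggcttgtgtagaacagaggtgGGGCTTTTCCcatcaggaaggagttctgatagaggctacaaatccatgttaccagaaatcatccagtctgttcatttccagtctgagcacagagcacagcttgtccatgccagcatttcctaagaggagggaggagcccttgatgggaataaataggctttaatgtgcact
Il1rn, chr2:24345121-24345370, plus strand: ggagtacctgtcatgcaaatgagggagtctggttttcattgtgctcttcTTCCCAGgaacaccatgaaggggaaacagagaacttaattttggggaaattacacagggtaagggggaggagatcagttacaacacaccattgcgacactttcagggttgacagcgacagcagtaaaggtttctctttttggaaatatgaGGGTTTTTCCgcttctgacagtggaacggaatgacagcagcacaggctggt
Counted back from the start, with -1 the last base printed, the STAT pattern of Apcs runs from -244 to -236 and that of Itih4 from -51 to -43. This pattern is held by 7.02% of the 32851 promoter windows of the same length. Apcs also holds the interleukin 6 response pattern at -129 to -123 and at -52 to -46, on the opposite strand, and each of the 3 windows of Il1rn holds it once, against 9.1% of all windows; of these 3, 2 windows overlap and share 1 match. The NF-kB pattern stands at -171 to -162 in Serpina3n and at -51 to -42 in the Il1rn window printed, against 1.41% of all windows. The C/EBP, HNF1 and TATA patterns were found in none of the 7 windows (9.56%, 0.371% and 12.4% of all windows), and the Itih3 window held none of the 6 patterns. A match is a run of letters, not a measured site.

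Values below are log2 expression as deposited, and changes are log2 differences ± SE from one limma fit of all 52 arrays. A gene was called at a Benjamini-Hochberg adjusted p under 0.05 over the 18193 genes, two-sided. Each time was set against the same 5 controls. Levels were not compared between genes, since probe sets differ in brightness for reasons other than transcript number. A bulk liver sample also cannot tell fewer cells of a type from less RNA per cell.

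Some arrays stood apart before any comparison was made. Xist, which marks an inactive X chromosome, read 9.12 to 9.49 in 24-hour replicates 9, 10 and 11 and 2.51 to 3.81 in the other 49 arrays, all labelled male. Over the 2000 most variable genes, 4-week replicate 1 and 1-week replicate 4 correlated below 0 with the rest of their own groups. The array labelled 4-week replicate 1 was closest to the 12-hour group, with a correlation of 0.94, which goes against its label, so 4-week values that rest on it are also given without it. Counting also 24-hour replicate 1 and control replicate 1, with high Gapdh 3' minus 5' differences, 7 arrays stood apart. The hybridization controls averaged 9.73 to 10.38 in the operated groups, against 10.85 in controls, and the Gapdh difference averaged 0.65 to 1.10 in the operated groups, against 1.61 in controls. Hepatocyte markers were high throughout: the mean of 10 markers lay between 12.79 and 13.07 in every group.

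Most of the 8 genes were higher than in controls from 6 hours to 1 week. At 1 hour 0 of 8 were called higher by limma, against 3.67% of all genes, although 2 (Itih3 and Fgl1) had an unadjusted p under 0.05. At 6 hours 7 of 8 were called higher, against 11.4% of all genes. The 12-hour count was 7 (17.9% of all genes), the 24-hour count 7 (18.9%) and the 48-hour count 6 (17.4%). It stood at 7 on day 3 (21.7% of all genes) and on day 4 (18.8%), and at 6 after 1 week (21.8%). None was called at 2 weeks (2.8% of all genes; Fgl1 alone had an unadjusted p under 0.05), and 1 each at 4 weeks (Fgl1; 9.33%; 0 without 4-week replicate 1) and at 3 months (Itih3; 16.7%). At no time was any of the 8 called lower.

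The median change over the 8 genes was 1.15 at 6 hours, 1.27 at 12 hours, 1.53 at 24 hours, 1.39 at 1 week, 0.23 at 2 weeks and 0.47 at 3 months. The median over all genes stayed between -0.04 and 0.02 in all 11 comparisons. Normalization to equal distributions holds that median near 0, so it is a reference only. At 24 hours the count was 7 also without the 3 arrays with Xist signal and without the 7 arrays that stood apart. The counts from 6 to 48 hours changed by at most 1 gene when any one array was left out. Those at 3 days, 4 days and 1 week were lower with technical covariates. With the hybridization controls as a covariate the count was 3 at 3 days, 3 at 4 days and 2 at 1 week. Hp, Serpina3n, Itih4 and Lbp were the calls lost at 3 and 4 days, and Serpina3n, Itih4, Lbp and Apcs those lost at 1 week. Their changes were larger with this covariate, not smaller, as for Lbp at 3 days (1.69, against 1.02). The hybridization controls of these groups lay apart from those of the controls (9.73 at 3 days, against 10.85), so covariate and time are hard to separate. With the poly-A controls the changes of the lost calls were smaller (Lbp at 3 days 0.80). Itih3 and Fgl1 passed at these 3 times in all 15 alternatives tried.

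**Figure D1:**
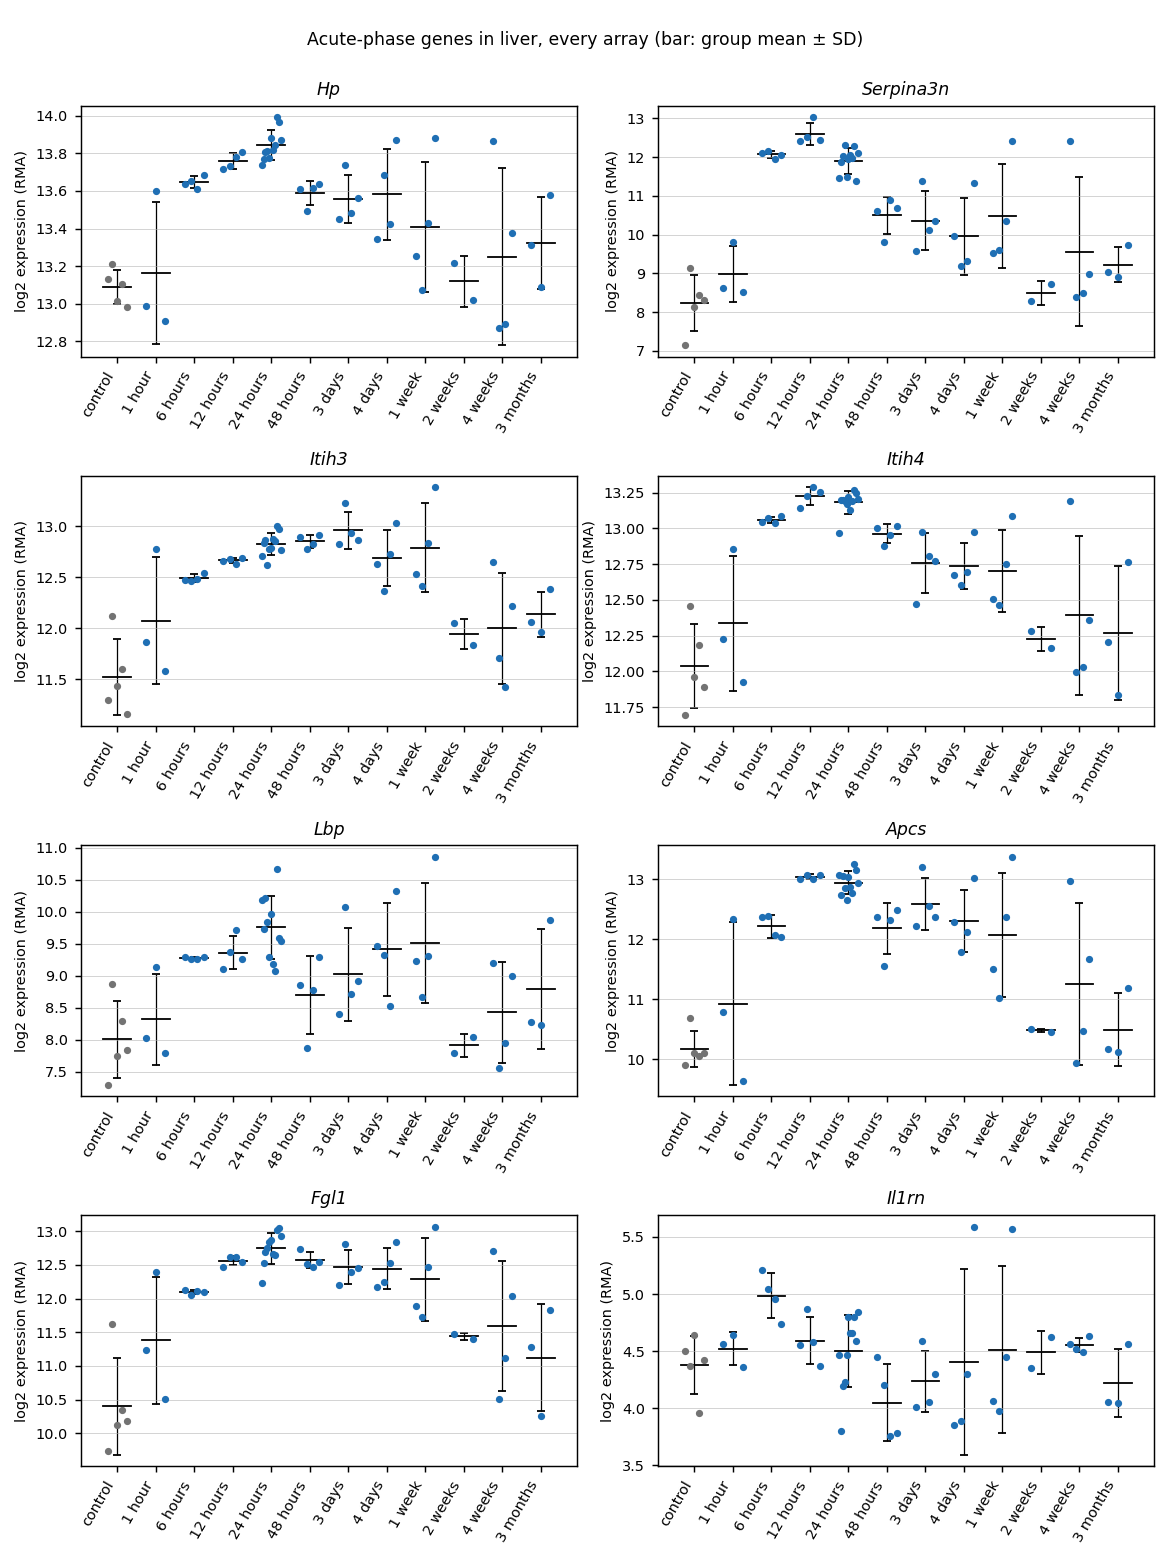
Log2 expression of each gene (y axis) in every array by time after the operation (x axis, control at the left); points are arrays, bars the group mean and whiskers the SD. The points of 6, 12 and 24 hours lie close together and above the controls in all panels but that of Il1rn, while at 4 days, 1 week and 4 weeks single arrays lie far above their group; Serpina3n at 4 weeks read 12.41 in replicate 1 and 8.38 to 8.98 in the other 3 arrays.

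**Figure D2:**
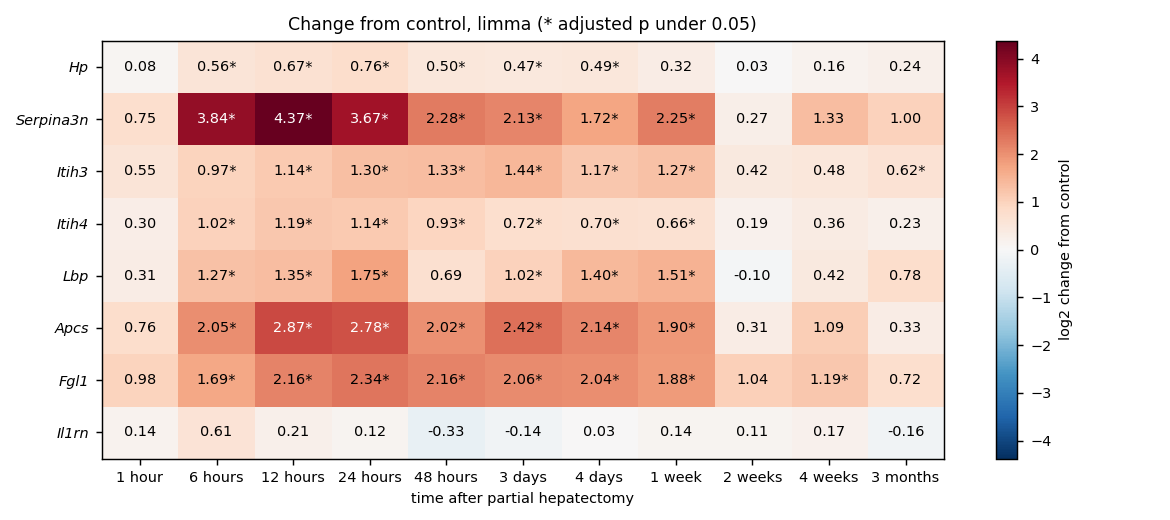
Log2 change from control (colour and printed value) for each gene (rows) at the 11 times (columns); an asterisk marks an adjusted p under 0.05. Serpina3n has the deepest colour, 4.37 at 12 hours, and the calls fill the columns from 6 hours to 1 week in 6 or 7 of the 8 rows.

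Serpina3n had the largest change of the 8 genes. It read 7.15, 9.13, 8.13, 8.44 and 8.30 in the 5 controls, 8.61, 9.80 and 8.51 at 1 hour, 12.10, 12.17, 11.95 and 12.07 at 6 hours, and 12.42, 12.53, 13.03 and 12.44 at 12 hours. The 24-hour arrays ran from 11.39 to 12.31 with a median of 11.97. Every array from 6 to 24 hours thus lay above every control, while 1 hour overlapped the controls. The change was 3.84 ± 0.52 at 6 hours (adjusted p = 2.59e-07), 4.37 ± 0.52 at 12 hours (adjusted p = 2.94e-08; 20.7-fold) and 3.67 ± 0.42 at 24 hours (adjusted p = 7.98e-09).

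From 48 hours on Serpina3n was lower again but still above control. It read 10.62, 9.81, 10.90 and 10.68 at 48 hours, 9.58, 11.39, 10.12 and 10.36 at 3 days, 9.96, 9.19, 9.32 and 11.34 at 4 days, and 9.53, 9.61, 10.35 and 12.42 at 1 week. One array in each of the last 3 groups stood well above its companions. The change was 2.28 ± 0.52 at 48 hours (adjusted p = 0.000945), 2.13 ± 0.52 at 3 days, 1.72 ± 0.52 at 4 days (adjusted p = 0.00989) and 2.25 ± 0.52 at 1 week. The calls at 3 and 4 days were lost with each of the 3 technical covariates. With the poly-A controls the change was 1.09 (adjusted p = 0.221) at 3 days and 0.51 (adjusted p = 0.67) at 4 days. With the hybridization controls it was larger, 2.39 (adjusted p = 0.146) and 1.95 (adjusted p = 0.238). The 1-week call was lost with the hybridization controls (2.48, adjusted p = 0.106) and with the poly-A controls (1.44, adjusted p = 0.0669). The 4-day call was also lost without 4-day replicate 4 (1.26, adjusted p = 0.0712).

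Later, Serpina3n read 8.28 and 8.72 at 2 weeks, 12.41, 8.38, 8.49 and 8.98 at 4 weeks, and 9.04, 8.91 and 9.74 at 3 months, and none of these times was called. The 4-week change was 1.33, and 0.39 without replicate 1. By mean level the order was 12 hours, 6 hours, 24 hours, 48 hours, 1 week, 3 days, 4 days, 4 weeks, 3 months, 1 hour, 2 weeks and control. Neighbours in this order overlapped in all but 2 steps: 12 hours lay wholly above 6 hours, and 24 hours wholly above 48 hours.

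Both inter-alpha-trypsin inhibitor heavy chains rose. Itih4 read 13.05, 13.07, 13.04 and 13.09 at 6 hours and 13.14, 13.22, 13.29 and 13.25 at 12 hours, against 11.69, 12.46, 11.96, 12.18 and 11.89 in controls. No array overlapped the controls at either time. Its change was 1.02 ± 0.17 at 6 hours (adjusted p = 1.31e-05), highest at 12 hours at 1.19 ± 0.17, and 0.66 ± 0.17 at 1 week (adjusted p = 0.00246), where the Gapdh difference as a covariate gave 0.39 (adjusted p = 0.121).

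Itih3 read 12.47, 12.47, 12.48 and 12.55 at 6 hours and 12.83, 13.23, 12.93 and 12.86 at 3 days, against 11.29, 12.12, 11.43, 11.60 and 11.16 in controls. All of these operated arrays were above all controls. The change was 0.97 ± 0.19 at 6 hours (adjusted p = 0.000127) and reached its highest value, 1.44 ± 0.19, at 3 days (adjusted p = 2.00e-07). At 3 months it read 12.06, 11.96 and 12.39, overlapping the highest control, and its change of 0.62 ± 0.21 (adjusted p = 0.0216) lost its call with each of the 3 technical covariates, with changes of 0.37 to 0.70 and adjusted p from 0.107 to 0.343, and in 4 of 8 fits with an array left out.

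Hp had the smallest highest change among the 7 called genes. It read 13.64, 13.66, 13.61 and 13.69 at 6 hours, against 13.13, 13.21, 13.02, 13.10 and 12.98 in controls. At 24 hours the arrays ran from 13.74 to 13.99 with a median of 13.82, again with no overlap. The change was 0.56 ± 0.14 at 6 hours (adjusted p = 0.00291) and 0.76 ± 0.12 at 24 hours (adjusted p = 2.18e-06), its highest. Only 0.102% of probe sets lay above Hp in the controls, and the highest probe set of any array read 13.92 to 14.24. Whether the range left above Hp limited its change was not tested. At 1 week Hp read 13.26, 13.07, 13.43 and 13.88 and was not called (0.32 ± 0.14, adjusted p = 0.0738).

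Apcs had the second largest change. It read 12.38, 12.39, 12.07 and 12.05 at 6 hours and 13.01, 13.08, 13.01 and 13.08 at 12 hours, against 9.91, 10.69, 10.11, 10.05 and 10.10 in controls. The groups lay more than 1 apart at both times. The change was 2.05 ± 0.40 at 6 hours (adjusted p = 0.000124) and 2.87 ± 0.40 at 12 hours (adjusted p = 4.75e-07). It was still 2.42 ± 0.40 at 3 days, where the arrays read 12.23, 13.21, 12.55 and 12.37, and 1.90 ± 0.40 at 1 week, where they read 11.50, 11.03, 12.37 and 13.38 and did not overlap the controls. At 4 weeks the spread was wide, with 12.97, 9.93, 10.47 and 11.67, and the change of 1.09 ± 0.40 was not called (adjusted p = 0.0602), and it was 0.52 (adjusted p = 0.449) without replicate 1.

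Lbp rose by 1.27 ± 0.40 at 6 hours (adjusted p = 0.0165), when its arrays read 9.29, 9.27, 9.26 and 9.30, against 7.29, 8.88, 7.74, 8.30 and 7.84 in controls. The change was 1.75 ± 0.32 at 24 hours (adjusted p = 4.57e-05), where arrays ran from 9.07 to 10.67 with a median of 9.73. Every array of these times lay above the highest control. The 6-hour call was lost with the Gapdh difference as a covariate (1.12, adjusted p = 0.0649) and without control replicate 1 (1.09, adjusted p = 0.0638). At 48 hours Lbp read 8.86, 7.86, 8.77 and 9.30, overlapped the controls and was not called (0.69 ± 0.40, adjusted p = 0.189). It was called again at 3 days, 4 days and 1 week, the last at 1.51 ± 0.40 (adjusted p = 0.00288), and at 0.88 (adjusted p = 0.099) without the arrays that stood apart. The 3-day call (1.02, adjusted p = 0.0398) held in 7 of 15 alternatives and in 4 of 9 fits with an array left out; without 3-day replicate 2 the change was 0.67 (adjusted p = 0.198). A second, dimmer probe set of Lbp was called at the same 6 times, and not at 48 hours, and its 12 group means correlated with those of the brighter one at 0.91, a description over values that share arrays.

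Fgl1 rose by 6 hours and, like Itih3, was called at 8 of 11 times. It read 12.12, 12.05, 12.11 and 12.10 at 6 hours, against 9.74, 11.63, 10.12, 10.34 and 10.19 in controls. Control replicate 2, at 11.63, was the only control close to the operated arrays. The change was 1.69 ± 0.32 at 6 hours (adjusted p = 8.57e-05), 2.34 ± 0.26 at 24 hours (adjusted p = 4.74e-09) and 1.88 ± 0.32 at 1 week (adjusted p = 1.77e-05). Of its highest change, Fgl1 kept 80.3% at 1 week and Serpina3n 51.5% of its own, a difference that was not tested at this time. At 4 weeks Fgl1 read 12.70, 10.51, 11.12 and 12.04 and was called at 1.19 ± 0.32 (adjusted p = 0.00999); without 4-week replicate 1 the change was 0.82 (adjusted p = 0.116), and without all arrays that stood apart 0.66 (adjusted p = 0.248).

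Il1rn was near background, and its probe sets differed. The brightest set read 5.21, 5.05, 4.96 and 4.74 at 6 hours, against 4.50, 4.37, 4.64, 3.96 and 4.42 in controls, where the median of all probe sets was 4.04. The 6-hour arrays lay above all controls, yet the change of 0.61 ± 0.25 was not called (adjusted p = 0.0768), nor was any other time. With only the 6-hour and control arrays in the fit it passed (adjusted p = 0.00571), as it did without the arrays that stood apart (adjusted p = 0.0463) and with the mean of its probe sets (adjusted p = 0.00147). The second set read 7.58, 6.38, 5.28 and 4.81 at 6 hours, against 2.80, 3.10, 2.95, 3.79 and 3.22 in controls, and was called higher (adjusted p = 0.000828). Since those controls lie under the median of all probe sets, the rise is given as at least 3.91-fold against that median. It was called also at 12 hours (at least 2.00-fold), at 24 hours (at least 1.523-fold) and at 1 week (at least 1.85-fold). These bounds are of group means. At 24 hours replicates 1 and 9, both among the arrays that stood apart, read 6.19 and 6.81. The other 24-hour arrays ran from 3.97 to 4.58, and the group median was 4.29, near the 4.04 of all probe sets. At 1 week 1 array read 7.21 beside 3.64, 4.79 and 4.08.

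The third set of Il1rn was called at 6 hours only among the times against control, at least 2.65-fold higher by the same bound (adjusted p = 0.00434), with 6.52, 5.30, 5.21 and 4.77 at 6 hours, against 4.30, 3.35, 4.29, 3.81 and 4.17 in controls. All 3 sets had their highest group mean at 6 hours. The mean of 9 markers of neutrophils, cells that express Il1rn, was 4.56 to 4.93 at 6 hours, against 3.93 to 4.10 in controls. Of these 9 genes 2 (S100a8 and S100a9) were called higher at 6 hours and 0 lower, against 11.4% and 10.5% of all genes. Csf3r, Cxcr2, Mmp8, Mmp9, Ltf, Camp and Ngp were not called. The part of neutrophils in the Il1rn values was not tested.

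**Figure D3:**
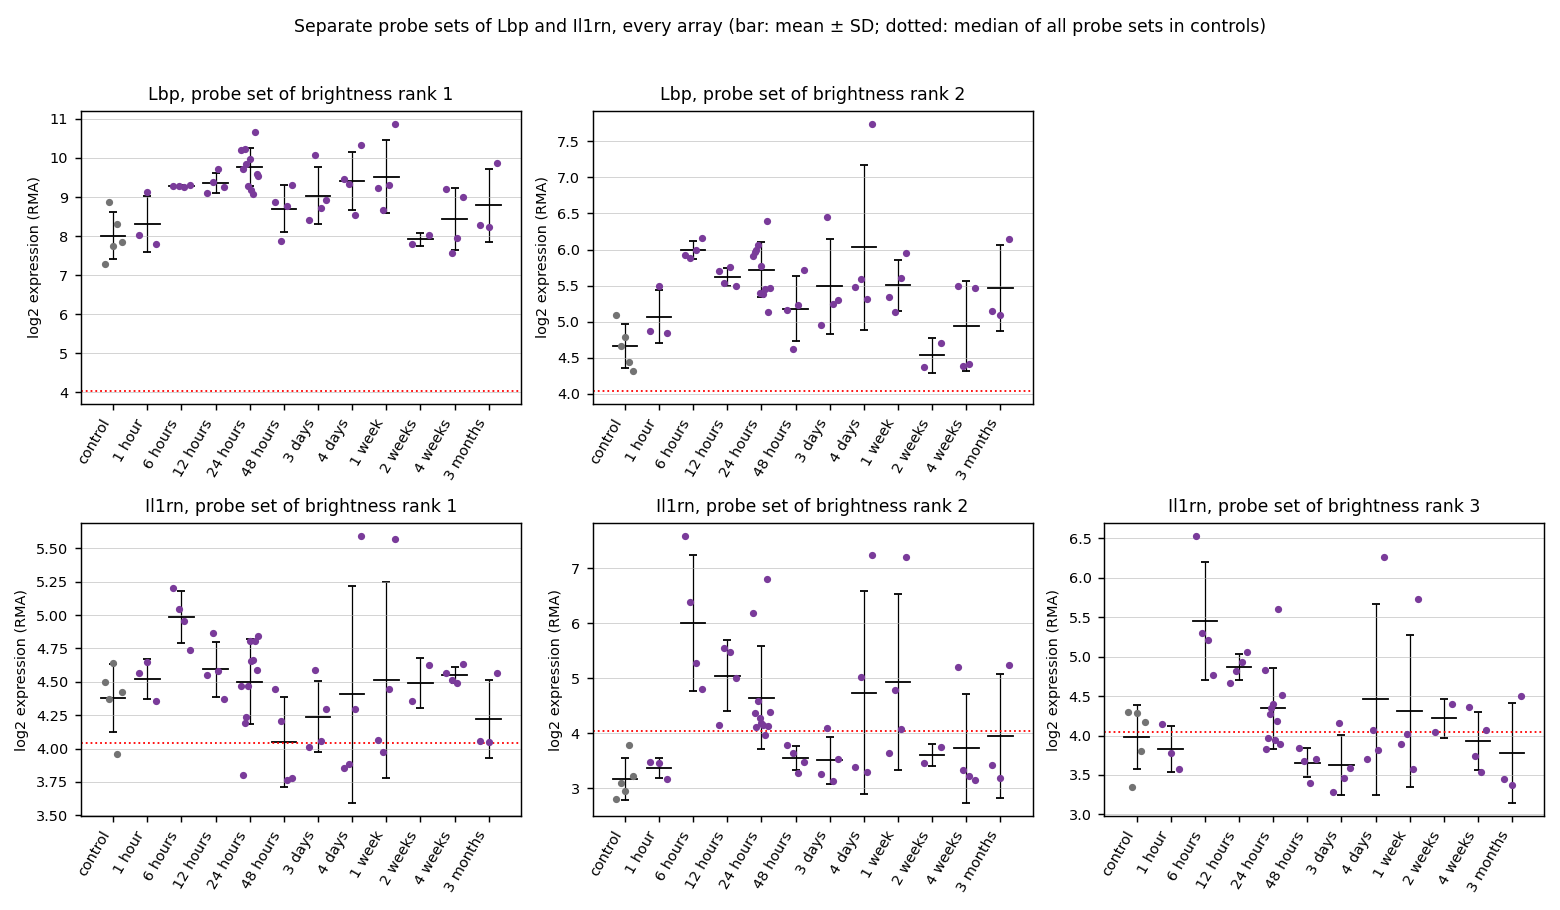
Log2 expression (y axis) of the 2 probe sets of Lbp and the 3 of Il1rn in every array by time (x axis); bars are group means, whiskers the SD, and the dotted line the median of all probe sets in controls, 4.04. The means of both Lbp sets lie above control at 6, 12 and 24 hours and below it at 2 weeks. The second and the third Il1rn sets have their highest means at 6 hours, at 6.01 and 5.45, and at 48 hours all their arrays lie under the dotted line, while single later arrays are above it, up to 7.24 at 4 days and 7.21 at 1 week in the second set.

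The step from 1 hour to 6 hours raised 3 genes, against 4.45% of all genes called higher: Serpina3n by 3.09 ± 0.59 (adjusted p = 0.000207), Itih4 by 0.73 ± 0.20 (adjusted p = 0.00985) and Hp by 0.48 ± 0.16 (adjusted p = 0.0478). The Hp call was lost in 6 of 7 fits with an array left out. With array weights, which lower the weight of arrays far from their group, all 8 genes passed. From 6 to 24 hours limma called 0 of 8 higher, against 15.1% of all genes; 2 (Apcs and Fgl1) had an unadjusted p under 0.05 and a higher mean at 24 hours, and Il1rn one with a lower mean. In this step the third probe set of Il1rn was called lower (-1.105 ± 0.33, adjusted p = 0.0168), and the second was not called (-1.36 ± 0.55, adjusted p = 0.0900).

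From 24 hours to 4 days 2 of 8 genes fell, against 4.46% of all genes called lower. Serpina3n fell by 1.95 ± 0.45 on the log2 scale (adjusted p = 0.00423), with 9.96, 9.19, 9.32 and 11.34 at 4 days, against 11.39 to 12.31 at 24 hours and no overlap. Itih4 fell by 0.45 ± 0.15 (adjusted p = 0.0499), a call held in 2 of 15 fits with an array left out. From 4 days to 1 week 0 of 8 were called lower, against 0.011% of all genes, and 0 had an unadjusted p under 0.05. From 1 week to 3 months 0 were called lower, against 0.506%, while 5 (Serpina3n, Itih3, Itih4, Apcs and Fgl1) had an unadjusted p under 0.05 with lower means at 3 months.

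The level of Serpina3n relative to the other genes of the same array was also lower at 4 days. This was looked at because Serpina3n had been seen to fall, so the values are a description with no test. Hp, near the top of the range, and Il1rn, near background, were left out because a fall might not show in them fully. Itih4, Apcs, Itih3 and Fgl1 were kept, though they also read high at 24 hours, with means of 13.18, 12.95, 12.82 and 12.74. The highest probe set of any array read 13.92 to 14.24. Whether a limited range in these genes affected the differences below was not tested. The log2 value of Serpina3n minus that of Itih3 was -2.74 ± 0.77 at 4 days and -0.92 ± 0.35 at 24 hours (SD, n = 4 and 11), lower by 1.81 at 4 days. Over Itih3, Itih4, Lbp, Apcs and Fgl1 the 4-day mean was lower by 1.31 (Apcs) to 1.81 (Itih3). All 4 arrays of 4 days lay below all 24-hour arrays when set against Itih3 and Lbp, and 3 of 4 did against Itih4, Apcs and Fgl1, the exception being replicate 4.

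**Figure D4:**
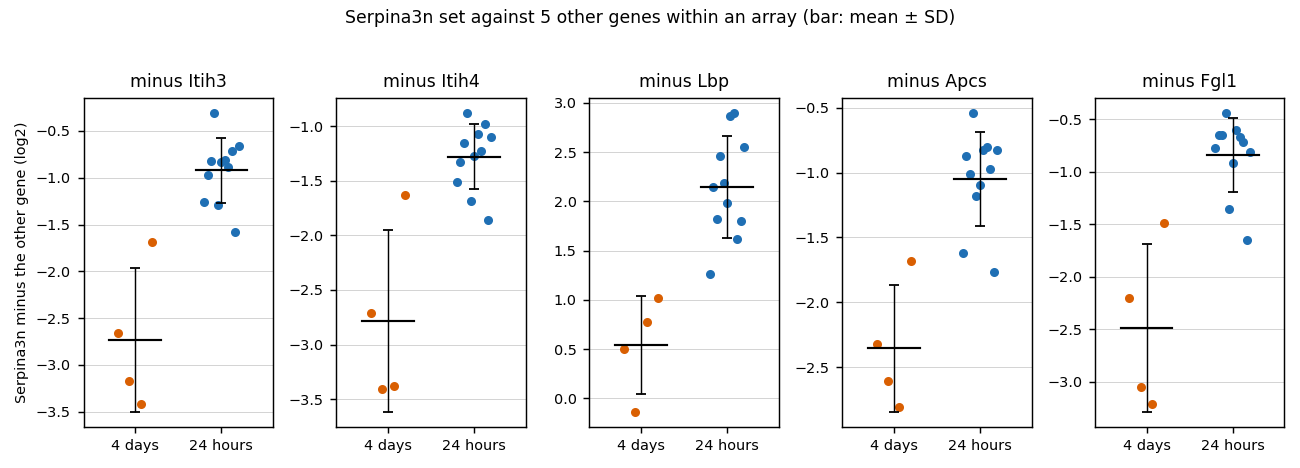
Log2 expression of Serpina3n minus that of 5 other genes within the same array (y axis), at 4 days on the left and 24 hours on the right of each panel; points are arrays, bars the mean and whiskers the SD. The 4-day mean lies below the 24-hour mean in all 5 panels, by 1.31 to 1.81.

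Within a group the 8 genes tended to deviate together from array to array. A single array was the highest of its group for all 8 genes in 5 groups (1-hour replicate 2, 3-day replicate 2, 4-day replicate 4, 1-week replicate 4 and 3-month replicate 3), and for 7 of 8 in 2 more (4-week replicate 1 and control replicate 2). In these arrays 19.1% to 39.5% of all genes were the highest of their group. The same 7 arrays were the highest of their group for 18 to 22 of the 23 other acute-phase genes listed. Saa1, serum amyloid A, read 13.51 in 1-hour replicate 2 and at most 9.24 in the other 1-hour arrays.

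Cell markers differed between these arrays. In 1-week replicate 4 Serpina3n read 12.42 and Saa2 13.72, against at most 10.35 and 10.89 in the other 1-week arrays. All 11 Kupffer cell markers, 8 of 9 neutrophil, 7 of 8 monocyte and macrophage and 6 of 8 stellate cell markers were the highest there too, against 39.5% of all genes. All 11 Kupffer cell markers and 6 of 9 neutrophil markers were highest also in 1-hour replicate 2, against 34.2% of all genes. For 3-month replicate 3 these counts were 1 of 11 and 6 of 9, against 29.1%. In 4-week replicate 1 Serpina3n read 12.41 and Lcn2, lipocalin 2, 12.75, against at most 8.98 and 9.09 in the other 4-week arrays. There 0 of 11 Kupffer cell markers and 4 of 9 neutrophil markers were highest, against 38.3% of all genes. In both 3-day replicate 2 and 4-day replicate 4, 8 of 9 neutrophil markers were highest, with 2 and 0 of 11 Kupffer cell markers (30.1% and 19.2% of all genes). In control replicate 2 Saa1 read 11.97, against 7.14 to 8.44 in the other 4 controls, so the controls themselves were not uniform in these genes. In 3-day replicate 2 the hybridization controls read 10.21, against 9.57 to 9.59 in the group's other arrays. The part of these measures in the values of the 8 genes was not tested.

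**Figure D5:**
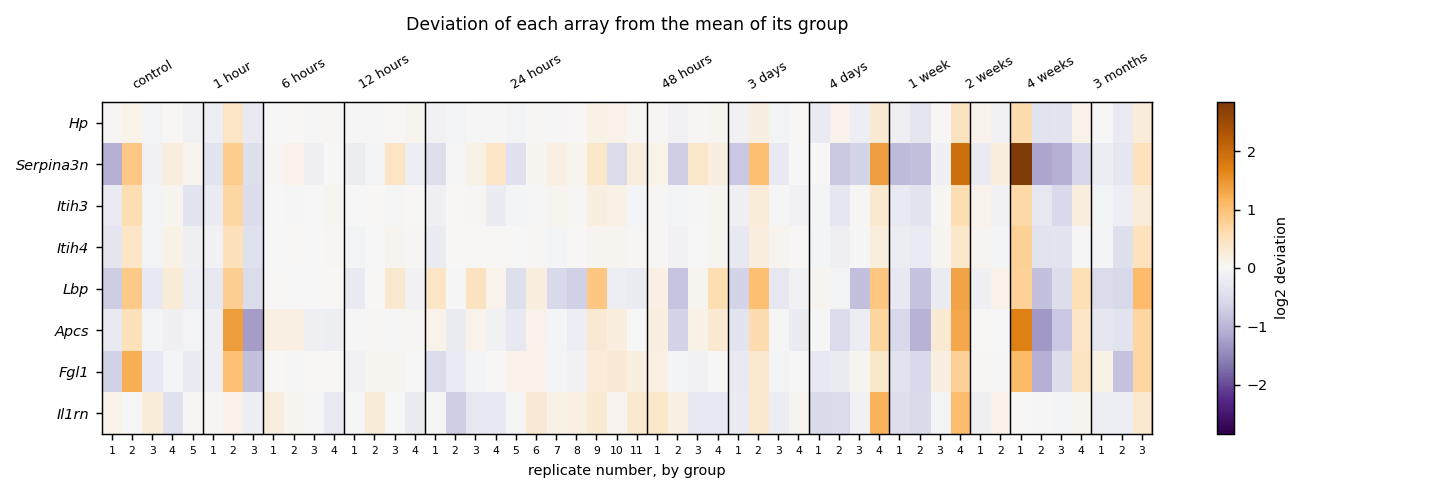
Deviation of each array (columns, by group and replicate number) from the mean of its group, in log2 units (colour), for each gene (rows). Columns tend to be of one colour, as in 1-week replicate 4, where the 8 genes lie above their group, while the 6-hour and 12-hour columns are nearly white for most genes.

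Genes outside the set with the most similar course were found by the Pearson correlation of the 12 group means, among 5131 genes whose means span at least 1. Serpina3n was most like Lrg1 (0.99), Bco1 (0.98) and Lrrc59 (0.97), and Itih4 most like Bco1 (0.98), Lrg1 (0.97) and Tnfrsf12a (0.97). Hp was most like Calu (0.96), Saa2 (0.95) and Lcn2 (0.95), and Apcs most like Ccdc120 (0.96), Pgm3 (0.96) and Gdf10 (0.95). Itih3 and Fgl1 had 2 of their 3 genes in common: Selenos (0.96 with each) and Kit (0.95 with Itih3 and 0.96 with Fgl1), the others being Tceal9 (0.94) for Itih3 and Hars (0.97) for Fgl1. Lbp was most like Mustn1 (0.95), Map7d1 (0.94) and Qsox1 (0.92). The brightest set of Il1rn had the lowest values, with Mmp8, Slc13a5 and Tnfrsf1b at 0.88 each. The 12 means share 52 arrays and their batches.

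Most other acute-phase genes listed were called higher at 6 and 24 hours. Of 23 measured, 14 were called higher and 0 lower at 6 hours, against 11.4% of all genes higher and 10.5% lower, and 17 higher and 1 lower at 24 hours, against 18.9% of all genes higher and 12.8% lower. At 1 week 14 were higher (21.8% of all genes) and at 2 weeks 2 (2.8%). The list's median change was 1.26 at 24 hours and 0.26 at 2 weeks. At 24 hours Lcn2 rose by 8.85 ± 0.82, Saa2 by 6.38 ± 0.85, the metallothionein Mt2 by 5.94 ± 0.40 and Mt1 by 5.28 ± 0.35. Hamp, which encodes the iron hormone hepcidin, was the 1 that fell, by 1.62 ± 0.43 (adjusted p = 0.00326). The 2 calls at 2 weeks were Mt1 and Mt2, which stood 4.48 and 5.11 above control when no gene of the 8 was called.

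The negative acute-phase proteins, plasma proteins known to drop in inflammation, gave calls in both directions. Of 13 measured, 3 were higher and 4 lower at 24 hours, when 18.9% of all genes were called higher and 12.8% lower, so the share called higher was near that of all genes. Serpina6, the corticosteroid-binding globulin, fell by 2.82 ± 0.71 (adjusted p = 0.00201), while Apoa4 rose by 2.95 ± 0.28 and the fetuin Ahsg by 0.47 ± 0.06. Alb, albumin, was not called, at 0.01.

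Genes of cytokine pathways known to lie upstream were called at 6 hours in both directions. Of 23 measured, 12 were higher and 3 lower at 6 hours, against 11.4% and 10.5% of all genes. Socs3, the feedback inhibitor of STAT3 signalling, rose by 3.83 ± 0.55, the interleukin 1 receptor Il1r1 by 3.65 ± 0.42, the factor Cebpd by 3.55 ± 0.43 and the oncostatin M receptor Osmr by 3.33 ± 0.58. Cebpa, a factor of resting hepatocytes, fell by 2.00 ± 0.37. From 6 to 24 hours 3 of the 23 rose and 10 fell, against 15.1% and 7.05% of all genes. By their brightest probe sets none of the 8 acute-phase genes was called lower, but the third set of Il1rn was (-1.105, adjusted p = 0.0168). Il1r1 fell by 2.26 ± 0.37 on the log2 scale in this step, and Socs3 fell by 2.07 ± 0.48. Il6 itself read 1.81 at 6 hours and 1.88 in controls, under the median of all probe sets.

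For relatives of single members the 24-hour calls are again to be read against the 18.9% of all genes higher and 12.8% lower, and these small lists are not set apart from it. Of 7 other serpins measured, 1 was higher and 2 lower at 24 hours: Serpina10 rose by 1.12 ± 0.20, whereas Serpinc1, antithrombin, fell by 0.28 ± 0.06, and Serpina1c was the second that fell. Of 5 other inter-alpha-trypsin inhibitor genes, 1 was higher at 24 hours, the heavy chain Itih2 (0.56 ± 0.13), while Itih1 (0.11), Itih5 (0.43), Ambp (0.13) and Tnfaip6 (0.13) were not called.

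Partners of the remaining members gave further calls at 24 hours, with the same shares of all genes as background (18.9% higher and 12.8% lower). Of 7 genes of haem and haemoglobin handling, 4 were higher and 0 lower at 24 hours: Cd163, the receptor for haptoglobin bound to haemoglobin and also a Kupffer cell marker, at 2.17 ± 0.39, Alas1 at 0.78 ± 0.30, the ferritin chain Fth1 at 0.62 ± 0.13 and haemopexin, Hpx, at 0.48 ± 0.08. Of 7 genes of lipopolysaccharide recognition 2 were higher at 24 hours, Cd14 at 2.88 ± 0.83 and Ly96 at 0.51 ± 0.18, and the receptor Tlr4 was not called. Of 7 fibrinogen and fibrinogen-like genes 4 were higher and 0 lower at 24 hours, Angptl4 at 1.70 ± 0.33 and the fibrinogen chains Fgb, Fgg and Fga at 0.62 ± 0.10, 0.49 ± 0.10 and 0.43 ± 0.12, while Angptl8 had fallen at 6 hours by 3.86 ± 0.67. Of 8 genes of the interleukin 1 axis 3 were higher at 24 hours (Il1r1 at 1.40 ± 0.34, Il18bp at 1.33 ± 0.17 and Il1a at 0.45 ± 0.14) and 2 were lower (Il1rap by 1.26 ± 0.21 and Il18 by 0.63 ± 0.25).

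Kupffer cell markers also rose, including at times when few or none of the 8 genes were called. Of 11 Kupffer cell markers, 5 were called higher at 1 hour (3.67% of all genes), when none of the 8 acute-phase genes was, and 3 at 6 hours (11.4%). At 24 hours, 1 week and 3 months 10 were called higher, against 18.9%, 21.8% and 16.7% of all genes. Their mean over the 11 genes was 5.56 to 5.82 at 6 hours, 5.79 to 7.32 at 24 hours and 6.61 to 7.78 at 3 months, against 4.30 to 5.30 in controls. At 2 weeks 10 were called as well, against 2.8% of all genes, with 0 of the 8 acute-phase genes called. Their part in the values of the 8 genes was not tested.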

How the data were processed

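Total RNA was isolated with TRIzol, copied with oligo dT primers and hybridized as biotin-labelled cRNA to 52 Affymetrix Mouse Genome 430 2.0 arrays, per the labels' protocols. The deposited values are log2 summaries per probe set made with RMA in oligo 1.52.0, per the submitters' processing notes. RMA gives arrays equal distributions, which removes a change common to most genes; joint normalization of the 52 arrays is not stated in these sources. The number of arrays limits the precision.

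Of 45101 probe sets, 34945 had 1 gene in the platform annotation, which gave 18193 genes. Groups and replicate numbers came from the titles. One limma 3.58.1 fit of 12 group means (R 4.3.3, lmFit and eBayes) gave 11 comparisons with control and 5 between times, with Benjamini-Hochberg adjustment over all genes; the procedure was tested on simulated data. The members, gene lists and patterns were chosen with earlier results of these data known. List genes were named by size of change, up to 4 per list plus the largest in the rarer direction, and further list members to complete small counts. In none of the 16 comparisons did every pair of same-numbered arrays correlate over 0.1 in their deviations from the group means, so replicate numbers were not used as a block. Alternatives covered the block, samples fitted, probe set choice, filters, scaling, priors, weights, thresholds, subsets of the 24-hour arrays, technical covariates and each array left out.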

Additional observations from a re-analysis of the deposited data

Results flagged for a closer look

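Of 64 gene and group combinations with 4 to 10 arrays, 3 held an array far from the others by Dixon's criterion, which chance meets in about 1 of 20 groups. Hp read 13.49 in 48-hour replicate 2, against 13.61 to 13.64 in the other 3 arrays (ratio of gap to range 0.8305). Serpina3n read 12.41 in 4-week replicate 1, against 8.38 to 8.98 (ratio 0.8515), and this array also correlated below 0 with its own group. Apcs read 10.69 in control replicate 2, against 9.91 to 10.11 in the other 4 controls (ratio 0.7405).

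Probe sets that were not the brightest of their gene gave calls for Il1rn that the brightest did not. The controls of these sets lay under the median of all probe sets, so the rises are bounds against that median. By group means the second set was higher at least 3.91-fold at 6 hours, 2.00-fold at 12 hours, 1.523-fold at 24 hours and 1.85-fold at 1 week. The 24-hour mean was raised by replicates 1 and 9, at 6.19 and 6.81, with a group median of 4.29. The 1-week mean was raised by 1 array at 7.21. The third set was higher at least 2.65-fold at 6 hours.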

How the results depend on the processing

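The counts of called genes at 6, 12, 24 and 48 hours and at 2 weeks against control, and at 1 week against 4 days, stayed within 1.5 times the reported count under every alternative other than leaving out an array. Of all counts under those alternatives, 210 did so and 42 did not. No called change of a single gene reversed its sign. At 3 days 7 calls became 3 with the hybridization controls, the poly-A controls or the Gapdh difference as a covariate. At 4 days 7 became 3 with the hybridization controls and 2 with the poly-A controls, and at 1 week 6 became 2 with the hybridization controls. At 4 weeks 1 became 0 with each covariate, without the arrays that stood apart and with only the groups compared, 2 with genes of low values left out and 3 with median centring. At 3 months 1 became 0 with each covariate, at an adjusted p under 0.01 and with a change of at least 2-fold. At 1 hour 0 became 2 with array weights. For 6 hours against 1 hour 3 became 5 with only the groups compared, 8 with array weights and 1 with at least 2-fold. For 24 hours against 6 hours 0 became 4 with only the groups compared and with array weights (3 higher and Il1rn lower), and 1 (Il1rn, lower) with the mean of all probe sets, 24-hour replicates 1 to 4 alone, the arrays that stood apart left out or the hybridization controls. For 4 days against 24 hours 2 became 1 with every probe set tested, median centring, an adjusted p under 0.01, at least 2-fold, 24-hour replicates 1 to 4 or 7 to 11 alone, no Xist arrays, the hybridization controls or the Gapdh difference, and 0 with 24-hour replicates 5 and 6 alone, which leave fewer arrays. For 3 months against 1 week 0 became 2 with array weights and 1 with the poly-A controls. The cause of these shifts was not tested.

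Leaving out 1 array gave counts of 0 to 2 at 1 hour, 6 to 7 at 6 hours, 7 at 12 and 24 hours, 6 at 48 hours, 6 to 7 at 3 days, 4 days and 1 week, 0 to 1 at 2 weeks, 0 to 4 at 4 weeks and 0 to 2 at 3 months. Between times it gave 1 to 6 for 6 hours against 1 hour, 0 for 24 hours against 6 hours and for 1 week against 4 days, 1 to 2 for 4 days against 24 hours and 0 to 1 for 3 months against 1 week. Without control replicate 2, the highest control for 7 of the 8 genes, the count was 2 at 1 hour, 1 at 2 weeks, 4 at 4 weeks and 2 at 3 months; without 1-hour replicate 3 it was 2 at 1 hour. Without 4-week replicate 1 or control replicate 1 it was 0 at 4 weeks, and without 4-week replicates 2 or 3 it was 3 or 4. At 3 months it was 0 without control replicates 1 or 5 or 3-month replicates 1 or 3, and 2 without 3-month replicate 2. For 6 hours against 1 hour it was 6 without 1-hour replicate 2 and 1 without 1-hour replicates 1 or 3. For 4 days against 24 hours it was 2 only without 24-hour replicate 1 or 4-day replicate 4, and for 3 months against 1 week it was 1 without 1-week replicate 2. Same-numbered arrays did not all deviate together in any comparison; with the replicate number as a block the count was 1 for 24 hours against 6 hours and 1 for 4 days against 24 hours, and 6 at 3 days and 2 for 6 hours against 1 hour, and no other count changed.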
